A study of Mus musculus with 27 samples.

Results

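10 genes of the antioxidant and metal-binding defence of the heart are described across 9 groups of mouse hearts. They are Gclc, Gclm and Gsr of the glutathione system, Nqo1, Hmox1, Txnrd1 and Srxn1 of the wider NRF2 programme, Nfe2l2, which encodes NRF2 itself, and the metallothioneins Mt1 and Mt2. They were matched by symbol in the probe annotation, and all 10 were found among the 19937 genes measured. Each had 1 probe set of its own, so no choice between probe sets was needed.

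NRF2 is a transcription factor that KEAP1 marks for destruction. Oxidants and electrophiles stop this, and NRF2 then pairs with small MAF proteins at antioxidant response elements near genes that make glutathione, reduce quinones and recharge thioredoxin and peroxiredoxins. Metallothioneins are small cysteine-rich proteins that bind zinc and copper. Their genes respond to metals through MTF1, which binds metal response elements, and to glucocorticoids. JQ1 is a small molecule that keeps bromodomain proteins from reading acetylated chromatin.

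The hearts came from C57Bl/6J littermate males of 10 to 12 weeks, without any stated transgene or deletion. The 9 groups of 3 arrays are transverse aortic constriction (TAC) with JQ1, TAC with vehicle, and sham surgery with vehicle, each at day 3, 11 and 28. TAC narrows the aortic arch and so raises the pressure the left ventricle works against. Injections began 1.5 days after surgery. There is no sham group with JQ1 here, so the JQ1 comparison describes JQ1 in hearts under TAC. RNA came from 10 to 20 mg of heart tissue and was measured on Affymetrix whole-transcript arrays. The labels do not say that the 3 arrays of a group come from separate animals, so the p-values measure only the spread between these arrays. A piece of heart holds many cell types, and fewer cells of a type cannot be told apart from less RNA per cell.

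Levels below are the deposited log2 signals, and a difference of 1 is a doubling. Changes are log2 fold changes ± standard error from 1 limma fit to all 27 arrays, with 3 arrays per group and p-values adjusted by Benjamini-Hochberg over all 19937 genes. A gene is called at adjusted p under 0.05. Separation of the arrays of 2 groups, stated below for single genes, was frequent among all genes. For TAC JQ1 and TAC vehicle, 23.08%, 36.31% and 35.04% of all genes did not overlap at days 3, 11 and 28. For TAC vehicle and sham the shares were 21.56%, 33.4% and 37.7%. For TAC JQ1 and sham they were 26.62%, 32.63% and 33.32%. Array medians lay between 6.954 and 7.043. The 13 cardiomyocyte markers averaged 12.63 to 12.77 in the 9 groups. The array of TAC JQ1 replicate 1 at day 3 stood farthest from its group, with a root mean square deviation of 0.193 over all genes, and the results that rest on it are given with and without it. JQ1 and TAC changes share the TAC vehicle arrays, so high TAC vehicle values raise a TAC change and lower a JQ1 change.

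With JQ1 against TAC vehicle, Gclc, Nfe2l2, Mt1 and Mt2 were called higher and Nqo1 lower in at least 1 comparison. The share of all genes called in at least 1 of these comparisons was not computed, so each comparison is given with its own share. At day 3, Gclc, Nfe2l2, Mt1 and Mt2 were higher with JQ1 than with vehicle after TAC, 4 of 10 genes called, beside 4.28% of all genes called higher, and 0 were called lower by limma beside 7.61%. In that comparison 6 of the 10 had an unadjusted p under 0.05, beside 4614 of all 19937 genes. At day 11 the same 4 genes were called higher beside 7.52%, and Nqo1 was called lower beside 8.43%. At day 28 Gclc and Nfe2l2 were higher beside 7.16% and Nqo1 lower beside 12.4%. In the mean of the 3 days the calls were Gclc, Nfe2l2, Mt1 and Mt2 higher beside 12.3% of all genes, and Nqo1 lower beside 16.8%. The median change of the 10 genes in that mean was 0.32, and that of all genes was 0.02. Without TAC JQ1 replicate 1 of day 3 the median of the 10 genes was 0.19. At day 3, 3 of the 10 were then called higher, beside 2.18% of all genes, and 0 lower, beside 4.89%. Mt2 was the gene no longer called.

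TAC was set against sham in vehicle-treated hearts. It gave 0 calls among the 10 genes at day 3 by limma, beside 4.22% of all genes higher and 3.33% lower. An unadjusted p under 0.05 was found for 2 of the 10, beside 3681 of all 19937 genes. Mt2 was the 1 gene called higher at day 11, beside 7.8% higher and 7.73% lower, and again at day 28, beside 8.13% higher and 6.98% lower. In the mean of the 3 days Mt2 and Hmox1 were higher, beside 13% of all genes higher and 12.9% lower. The median TAC change of the 10 genes in that mean was 0.11, against −0.03 for all genes.

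TAC JQ1 hearts were also set against sham hearts. At day 3, 8 of the 10 genes were called higher, all but Nqo1 and Gsr, beside 6.94% of all genes higher and 10.7% lower. Without TAC JQ1 replicate 1 the count was 6, beside 4.79% of all genes higher and 8.25% lower. At day 11 Gclc, Mt1 and Mt2 were called higher, beside 5.01% higher and 5.51% lower. At day 28 Gclc, Nfe2l2, Mt1 and Mt2 were higher beside 7.36% and Nqo1 was lower beside 12.6%. In the mean of the 3 days 5 genes were higher, Gclc, Hmox1, Nfe2l2, Mt1 and Mt2, beside 12.8% higher and 17.1% lower. Without TAC JQ1 replicate 1 of day 3 there were 5 higher, beside 12.3% of all genes, and 1 lower, Nqo1, beside 16.8%. The mean change of Nqo1 was −0.32 (adjusted p = 0.00043, limma) without that array and −0.21 (0.113) with it.

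**Figure D1:**
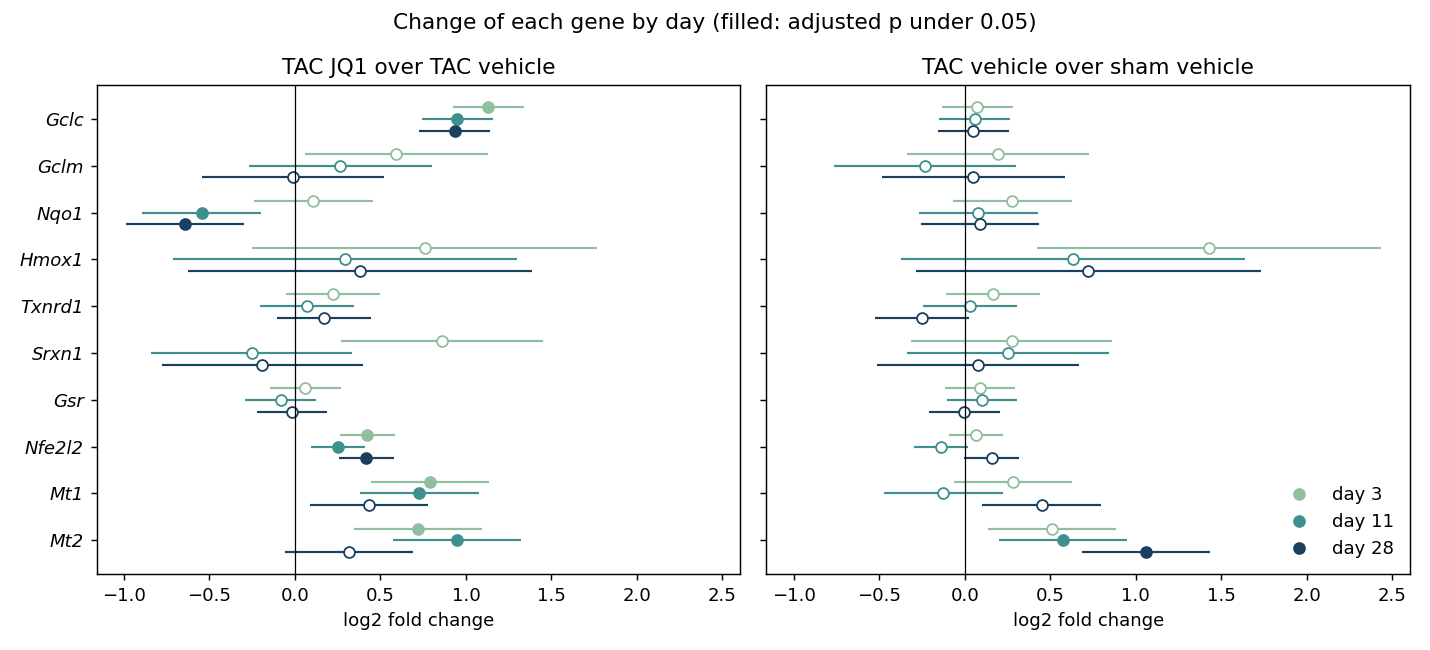
Log2 fold change of each gene with its 95% confidence interval at days 3, 11 and 28, for TAC JQ1 over TAC vehicle (left) and TAC vehicle over sham vehicle (right). Filled points have an adjusted p under 0.05. Gclc lies near 1 at every day on the left and near 0 on the right, and Mt2 is the gene with filled points on both sides.

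Whether an effect differed between days was tested with moderated F tests in limma. None of the 10 genes was called for the TAC effect between days (1.31% of all genes called), the JQ1 effect between days (1.07%) or the sham level between days (0.0652%). An unadjusted p under 0.05 was found for 1, 2 and 1 of the 10 in these tests. Of all 19937 genes, 2867, 3927 and 1374 had an unadjusted p under 0.05. The lowest adjusted p for the JQ1 effect between days was that of Nqo1, 0.137. Without TAC JQ1 replicate 3 of day 3 it was 0.0407.

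Gclc, the catalytic subunit of the enzyme for the rate-limiting step of glutathione synthesis, was 2.01-fold higher with JQ1 in the mean of the 3 days. It lies on chromosome 9 at 77754535-77794489 (GRCm38.p6, as are all positions here). Its level at day 3 was 10.45, 9.98 and 9.87 in the TAC JQ1 arrays, 8.94, 8.98 and 8.99 in the TAC vehicle arrays, and 8.99, 8.88 and 8.82 in the sham arrays. At day 11 it was 10.00, 10.09 and 9.80 in TAC JQ1, 9.056, 8.986 and 9.003 in TAC vehicle, and 8.98, 8.87 and 9.02 in sham. The day 28 levels were 9.90, 9.83 and 10.02 in TAC JQ1, 8.94, 8.99 and 9.01 in TAC vehicle, and 8.92, 8.92 and 8.96 in sham. All 9 TAC JQ1 arrays, from 9.80 to 10.45, lay above all 9 TAC vehicle arrays, from 8.94 to 9.06, and all 9 sham arrays, from 8.82 to 9.02. The change with JQ1 was 1.13 ± 0.10 at day 3 (adjusted p = 1.88e-07, limma), 0.95 ± 0.10 at day 11 (1.96e-06) and 0.93 ± 0.10 at day 28 (9.36e-07). No alternative and no left-out array ended a JQ1 call of Gclc, and the day 3 change was 0.96 without replicate 1. TAC alone gave 0.07, 0.06 and 0.05 at days 3, 11 and 28, with adjusted p of 0.803, 0.822 and 0.781. The mean TAC change of Gclc over the 3 days had a 95% interval of −0.06 to 0.18.

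Gclm encodes the modifier subunit that partners GCLC, and it was not called with JQ1 against TAC vehicle at any day. It lies on chromosome 3 at 122245487-122267215. Its level at day 3 was 11.57, 9.97 and 9.76 in TAC JQ1, 9.81, 9.82 and 9.90 in TAC vehicle, and 9.75, 9.46 and 9.74 in sham. Replicate 1 stood 1.6 above the next array of its group, and the other TAC JQ1 arrays overlapped TAC vehicle. The JQ1 change was 0.59 ± 0.26 (adjusted p = 0.155, limma), and without replicate 1 it was 0.02 ± 0.11 (0.929). Without replicate 3 it was called, at 0.93 (0.0135). At day 11 the arrays held 9.71, 9.76 and 9.95 in TAC JQ1, 9.49, 9.56 and 9.58 in TAC vehicle, and 9.92, 9.69 and 9.72 in sham. The TAC JQ1 arrays lay above the TAC vehicle arrays and overlapped the sham arrays, with a JQ1 change of 0.27 ± 0.26 (0.536). At day 28 the change was −0.01 ± 0.26 (0.982), with a 95% interval of −0.54 to 0.52. Against sham at day 3 Gclm was called higher, 0.79 ± 0.26 (0.0362), and that call was lost without replicate 1 (0.22, 0.253) and without any 1 of the 3 sham arrays of that day (0.0609 to 0.123). It was also lost with trend and robust eBayes (0.0558), array weights (0.0665) and only the groups compared (0.346).

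Gclm is shown here as the partner subunit whose promoter window holds a match of the antioxidant response element core. The sequence is from RefSeq (GRCm38.p6, plus strand, chr3:122245307-122245486), the part of the window of 250 bases before its listed start that lies outside the gene. Capitals mark the match of TGACNNNGC, which is on the other strand at position −134 and shares bases with a match of TGCGCNC at −138.
Gclm: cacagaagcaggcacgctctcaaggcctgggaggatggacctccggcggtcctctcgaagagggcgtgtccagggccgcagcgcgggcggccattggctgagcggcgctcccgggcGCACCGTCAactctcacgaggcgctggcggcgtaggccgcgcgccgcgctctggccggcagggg

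The RefSeq promoter table, with 300 bases per window (250 before the start and 50 after), held windows for 7 of the 10 genes and none for Gclc, Hmox1 and Gsr. TGACNNNGC, searched on both strands, was found in at least 1 window of 5 of the 7 (Gclm, Txnrd1, Srxn1, Nfe2l2 and Mt2) and in 12.4% of all 32851 windows of the table. Txnrd1 had 3 windows, and its match was in 1 of them (82858956-82859255), which lies inside the gene. The window of Nqo1 held no match, which says only that these letters are not in this window. The genes with a match include Nfe2l2 and Mt2, which were called with JQ1 against TAC vehicle, and Gclm, Txnrd1 and Srxn1, which were not called in that comparison.

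Gsr, the glutathione reductase that restores reduced glutathione, was called in none of the comparisons. It lies on chromosome 8 at 33653238-33698162. Its level ran from 8.57 to 9.23 in the 9 TAC JQ1 arrays (median 8.72), 8.64 to 8.96 in TAC vehicle (8.77) and 8.63 to 8.87 in sham (8.71). The 9.23 was replicate 1 of day 3. The JQ1 change lay between −0.08 and 0.06 at the 3 days with adjusted p of 0.627 to 0.918, and the 95% interval of its mean was −0.13 to 0.11.

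Nfe2l2 encodes NRF2, and its transcript was higher with JQ1. It lies on chromosome 2 at 75675513-75704663. At day 3 the level was 11.19, 11.05 and 11.07 in TAC JQ1, 10.69, 10.72 and 10.62 in TAC vehicle, and 10.58, 10.59 and 10.66 in sham. The TAC JQ1 arrays lay above all others of that day. The change with JQ1 was 0.42 ± 0.08 (adjusted p = 0.000688, limma). At day 11 the level was 10.81, 10.91 and 10.76 in TAC JQ1, 10.56, 10.58 and 10.59 in TAC vehicle, and 10.67, 10.71 and 10.76 in sham. The day 28 levels were 11.23, 11.18 and 11.47 in TAC JQ1, 10.72, 10.87 and 11.03 in TAC vehicle, and 10.68, 10.77 and 10.70 in sham. The TAC JQ1 arrays lay above TAC vehicle at both days. The JQ1 change was 0.25 ± 0.08 at day 11 (0.0265) and 0.42 ± 0.08 at day 28 (0.000396). The day 11 call was lost under quantile normalization (0.0582) and without any 1 of the 3 TAC vehicle arrays or of TAC JQ1 replicates 1 and 2 of that day (0.0523 to 0.129). TAC alone gave 0.07, −0.14 and 0.16, none of them called.

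The promoter of Nfe2l2 is shown because the window before its start holds a match of the antioxidant response element core. Binding at this match was not tested. The sequence is from RefSeq (GRCm38.p6, minus strand, chr2:75704664-75704913), 250 bases before the start, read 5′ to 3′ along the gene. Capitals mark the match of TGACNNNGC at position −240.
Nfe2l2: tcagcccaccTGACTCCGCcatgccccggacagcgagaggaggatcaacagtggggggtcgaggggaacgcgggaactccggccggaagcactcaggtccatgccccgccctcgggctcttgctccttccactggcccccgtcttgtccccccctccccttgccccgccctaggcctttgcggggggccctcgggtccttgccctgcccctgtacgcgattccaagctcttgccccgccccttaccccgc

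Nqo1, which encodes a quinone reductase often used as an NRF2 marker, was lower with JQ1 at days 11 and 28. It lies on chromosome 8 at 107388225-107403205. At day 3 its level was 10.60, 9.76 and 9.55 in TAC JQ1, 9.98, 9.72 and 9.88 in TAC vehicle, and 9.59, 9.50 and 9.66 in sham. The groups overlapped, and replicate 1 of TAC JQ1 was the highest of the 27 arrays. The JQ1 change was 0.11 ± 0.17 (adjusted p = 0.798, limma), and without replicate 1 it was −0.21 ± 0.12 (0.347). At day 11 the level was 9.40, 9.23 and 9.23 in TAC JQ1, 9.75, 10.02 and 9.73 in TAC vehicle, and 9.74, 9.64 and 9.88 in sham. By day 28 the level was 9.08, 8.88 and 9.32 in TAC JQ1, 9.66, 9.67 and 9.88 in TAC vehicle, and 9.62, 9.65 and 9.68 in sham. At both later days the TAC JQ1 arrays lay below every TAC vehicle and sham array. Nqo1 fell by 0.55 at day 11 (SE 0.17, adjusted p = 0.0283) and by 0.64 at day 28 (SE 0.17, 0.00846). At day 11 the adjusted p passed 0.05 when TAC vehicle replicate 1 or 2 or TAC JQ1 replicate 2 or 3 of that day was left out (0.0522 to 0.138), and at day 28 when TAC JQ1 replicate 2 of that day was (0.0568). Against sham, Nqo1 fell by 0.55 at day 28 (SE 0.17, 0.0199), a call lost when sham replicate 2 or 3 or TAC JQ1 replicate 1 or 2 of that day was left out (0.0529 to 0.101). Without replicate 1 of day 3, whose spread enters the pooled error, the adjusted p was 0.000769 at day 11 and 0.000108 at day 28. Against sham at day 11 it was 0.0803 with that array and 0.00400 without it, at a change of −0.47.

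Hmox1, which encodes the inducible haem oxygenase, was the gene with the widest spread between arrays of a group. Its pooled residual SD was 0.67, above that of 99.97% of all genes. It lies on chromosome 8 at 75093618-75100593. At day 3 its level was 11.29, 10.48 and 8.48 in TAC JQ1, 8.26, 9.91 and 9.81 in TAC vehicle, and 7.86, 8.07 and 7.76 in sham. At day 11 it was 9.62, 8.46 and 8.71 in TAC JQ1, 8.98, 8.26 and 8.68 in TAC vehicle, and 8.18, 7.95 and 7.88 in sham. At day 28 it was 8.28, 9.61 and 8.76 in TAC JQ1, 8.32, 8.45 and 8.73 in TAC vehicle, and 7.57, 7.88 and 7.87 in sham. At each day every TAC array, with JQ1 or with vehicle, lay above every sham array, while the TAC JQ1 and TAC vehicle arrays overlapped. The mean TAC change over the 3 days was 0.93 ± 0.28 (adjusted p = 0.0154, limma), and the single days gave 1.43 ± 0.49 (0.0799), 0.64 ± 0.49 (0.491) and 0.72 ± 0.49 (0.355). The day 3 change was called without TAC vehicle replicate 1 (1.96, 0.0127), without TAC JQ1 replicate 1 (0.0364) or 3 (0.0152) of that day, and with array weights (0.0211). With only the groups compared it was called at day 11 (0.0430) and day 28 (0.00471). JQ1 against TAC vehicle gave 0.76, 0.29 and 0.38 with adjusted p of 0.396, 0.730 and 0.589. Without TAC JQ1 replicate 3, the lowest array of its group, the day 3 change was 1.56 (0.0116), and without replicate 1 it was 0.16 (0.892). Against sham at day 3 the TAC JQ1 change was 2.18 ± 0.49 (0.00249), and 1.58 ± 0.48 (0.0296) without replicate 1. It was not called when only the groups compared were fitted (0.0654).

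Haem oxygenase is abundant in macrophages, so their markers are set beside Hmox1. The 18 macrophage and monocyte markers averaged 8.11 in TAC JQ1, 8.82 in TAC vehicle and 8.32 in sham at day 3. At day 11 they averaged 8.04 in TAC JQ1, 8.68 in TAC vehicle and 8.04 in sham. At day 28 they averaged 8.30 in TAC JQ1, 8.89 in TAC vehicle and 7.94 in sham. TAC raised 7, 15 and 15 of the 18 at days 3, 11 and 28, beside 4.22%, 7.8% and 8.13% of all genes. JQ1 lowered 13, 14 and 11 of the 18, beside 7.61%, 8.43% and 12.4%. Without TAC JQ1 replicate 1 the day 3 count with JQ1 was 8, beside 4.89%. In the TAC JQ1 arrays of day 3 the list averaged 8.01, 8.19 and 8.14, while Hmox1 was 11.29, 10.48 and 8.48. Of the TAC vehicle arrays of day 3 the one with the lowest list, 8.53, also had the lowest Hmox1. The TAC vehicle arrays ranked alike by the list and by Hmox1 at days 3, 11 and 28. In TAC JQ1 the ranks ran opposite at day 11, with list averages of 8.01, 8.08 and 8.03. They also ran opposite in TAC JQ1 at day 28, with 8.46, 8.14 and 8.32. The sham arrays ranked alike at days 3 and 28 and opposite at day 11. The part of these cells in the level of Hmox1 was not tested.

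Txnrd1 and Srxn1 encode cytosolic thioredoxin reductase and the sulfiredoxin that repairs overoxidised peroxiredoxins. Neither was called with JQ1 against TAC vehicle. Txnrd1 lies on chromosome 10 at 82833951-82897724 and Srxn1 on chromosome 2 at 152105524-152111376. Srxn1 at day 3 was 10.84, 8.94 and 8.88 in TAC JQ1, 8.63, 8.73 and 8.72 in TAC vehicle, and 8.48, 8.45 and 8.34 in sham. The 3 groups did not overlap, and replicate 1 stood far above the rest. The JQ1 change was 0.86 ± 0.29 (adjusted p = 0.0519, limma) and was 0.22 ± 0.11 (0.285) without replicate 1. It was called after quantile normalization (0.0387), without the dimmest genes (0.0367), and without TAC JQ1 replicate 2 (0.0121) or 3 (0.00637). Against sham the change was 1.13 ± 0.29 (0.00664), and 0.49 ± 0.11 (0.00405) without replicate 1. That call was lost when only the groups compared were fitted (0.202). With TAC alone the mean change of Srxn1 was 0.20 ± 0.16 (0.425), and it was called without that array (0.20 ± 0.06, 0.00935). At day 11 Srxn1 was 8.43, 8.80 and 8.57 in TAC JQ1, 8.81, 8.77 and 8.99 in TAC vehicle, and 8.69, 8.50 and 8.61 in sham. The JQ1 changes of Srxn1 at days 11 and 28 were −0.25 and −0.19 with adjusted p of 0.599 and 0.651. Txnrd1 ran from 8.43 to 9.54 in the 9 TAC JQ1 arrays (median 8.82), 8.39 to 9.05 in TAC vehicle (8.76) and 8.58 to 8.86 in sham (8.67). Against sham Txnrd1 was higher at day 3 with JQ1, 0.39 ± 0.13 (0.0431), and this call was lost without replicate 1 (0.16, 0.386), without sham replicate 2 or 3 (0.148 and 0.125), under median centring (0.0586) and when only the groups compared were fitted (0.307). It also passed 0.05 without any 1 of 8 arrays of days 11 and 28 (at most 0.0512).

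The metallothioneins rose with JQ1, and Mt2 also rose with TAC. Mt1 and Mt2 lie next to each other on chromosome 8, at 94178883-94180327 and 94172618-94173567. Mt2 at day 3 was 13.45, 13.36 and 13.19 in TAC JQ1, 12.40, 12.57 and 12.86 in TAC vehicle, and 12.09, 12.27 and 11.95 in sham. At day 11 it was 13.22, 12.95 and 13.06 in TAC JQ1, 12.60, 11.83 and 11.96 in TAC vehicle, and 11.63, 11.59 and 11.44 in sham. At day 28 it was 12.66, 12.83 and 13.18 in TAC JQ1, 12.28, 12.48 and 12.97 in TAC vehicle, and 11.57, 11.68 and 11.31 in sham. The TAC vehicle arrays lay above sham at each day, and TAC JQ1 lay above TAC vehicle at days 3 and 11 and overlapped it at day 28. The JQ1 change of Mt2 was 0.72 ± 0.18 at day 3 (adjusted p = 0.0101, limma), 0.95 ± 0.18 at day 11 (0.000831) and 0.32 ± 0.18 at day 28 (0.216). The day 3 call was lost without TAC vehicle replicate 1 (0.0558) or TAC JQ1 replicate 1 (0.0541). The TAC change was 0.51 ± 0.18 (0.0960), 0.58 ± 0.18 (0.0311) and 1.06 ± 0.18 (0.000252) at days 3, 11 and 28, and the day 11 call was lost without any 1 sham array of that day or TAC vehicle replicate 1 (0.0583 to 0.256), and when only the groups compared were fitted (0.0772).

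Mt1 was called higher with JQ1 at days 3 and 11 and was not called with TAC. At day 3 it was 12.86, 12.53 and 12.17 in TAC JQ1, 11.70, 11.54 and 11.95 in TAC vehicle, and 11.30, 11.62 and 11.43 in sham. At day 11 it was 12.16, 11.89 and 12.04 in TAC JQ1, 11.62, 11.20 and 11.08 in TAC vehicle, and 11.46, 11.42 and 11.40 in sham. At day 28 it was 11.87, 12.02 and 12.41 in TAC JQ1, 11.45, 11.58 and 11.97 in TAC vehicle, and 11.19, 11.31 and 11.16 in sham. The TAC JQ1 arrays lay above both other groups at days 3 and 11, and above sham at day 28, where 1 TAC vehicle array reached into their range. The JQ1 change of Mt1 was 0.79 ± 0.17 (adjusted p = 0.00271, limma), 0.73 ± 0.17 (0.00402) and 0.43 ± 0.17 (0.0708) at days 3, 11 and 28. The first call was lost when only the groups compared were fitted (0.0594), and the last value was called without TAC JQ1 replicate 1 (0.0471) or 3 (0.0491) of day 3, TAC vehicle replicate 3 of day 28 (0.59, 0.0276) or TAC JQ1 replicate 1 of day 28 (0.55, 0.0453). Against sham at day 11 Mt1 was higher by 0.60 (SE 0.17, 0.0209), a call lost without any 1 sham array of that day or TAC JQ1 replicate 1 or 3 (0.0525 to 0.104). The TAC change was 0.28, −0.12 and 0.45 with adjusted p of 0.409, 0.758 and 0.0745, and the last was called with array weights (0.0352), only the groups compared (0.0396) or without TAC JQ1 replicate 1 of day 3 (0.0478). The levels of Mt1 and Mt2 followed each other over the 27 arrays (Pearson r = 0.90), and after the group means were taken out the r was 0.85.

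The promoter of Mt2 is shown because it holds matches of the metal response element, the site that MTF1 binds. Binding at these matches was not tested. The sequence is from RefSeq (GRCm38.p6, plus strand, chr8:94172368-94172617), 250 bases before the start, and capitals mark matches of TGCACNC or TGCGCNC on either strand.
Mt2: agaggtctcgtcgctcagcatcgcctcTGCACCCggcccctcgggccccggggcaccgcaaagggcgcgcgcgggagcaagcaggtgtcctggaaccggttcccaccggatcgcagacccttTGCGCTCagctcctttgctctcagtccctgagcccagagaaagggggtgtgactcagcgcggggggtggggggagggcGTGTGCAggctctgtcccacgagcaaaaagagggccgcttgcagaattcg

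Counting the 50 bases after the start, Mt2 had 4 such matches, and 0.517% of all windows had 4 or more. Mt1 had 3, and 1.97% had 3 or more. Only 44 bases of the Mt1 window lie before the annotated gene, and its 3 matches, at positions −23, 3 and 21, lie inside the gene. The bases before the annotated Mt1 gene were thus searched only in part. A match of either form was found in 25.7% of all windows, and in 4 of the 7 genes with a window, Gclm, Srxn1, Mt1 and Mt2. The Mt2 window also held TGACNNNGC at position −79, which overlaps a match of TGANTCA, the AP-1 site, found in 7.81% of all windows.

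Glucocorticoid-responsive genes are set beside the metallothioneins. The 12 measured averaged 9.58 in TAC JQ1, 9.20 in TAC vehicle and 9.32 in sham at day 3. The averages were 9.27 in TAC JQ1, 9.10 in TAC vehicle and 9.33 in sham at day 11, and 9.39 in TAC JQ1, 9.296 in TAC vehicle and 9.27 in sham at day 28. At day 11 the TAC JQ1 and sham arrays overlapped for the list, from 9.15 to 9.36 in TAC JQ1 and from 9.25 to 9.42 in sham. JQ1 raised 2, 1 and 0 of the 12 at days 3, 11 and 28, beside 4.28%, 7.52% and 7.16% of all genes. None of the 12 was lower, beside 7.61%, 8.43% and 12.4%. Without TAC JQ1 replicate 1 neither of the 2 was called at day 3. In the TAC JQ1 arrays of day 3 they averaged 10.04, 9.61 and 9.09, in the same order as Mt1 (12.86, 12.53 and 12.17) and Mt2 (13.45, 13.36 and 13.19). In the TAC JQ1 arrays of day 11 they averaged 9.29, 9.15 and 9.36, an order that differs from that of Mt1 (12.16, 11.89 and 12.04) and Mt2 (13.22, 12.95 and 13.06). In the TAC JQ1 arrays of day 28 they averaged 9.30, 9.34 and 9.54, again in the order of Mt1 and Mt2. Among the TAC vehicle arrays Mt1 had the order of the list at each day, and Mt2 had it at day 28 only. Among the sham arrays neither gene had the order of the list at any day. The part of glucocorticoid in the metallothionein levels was not tested.

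**Figure D2:**
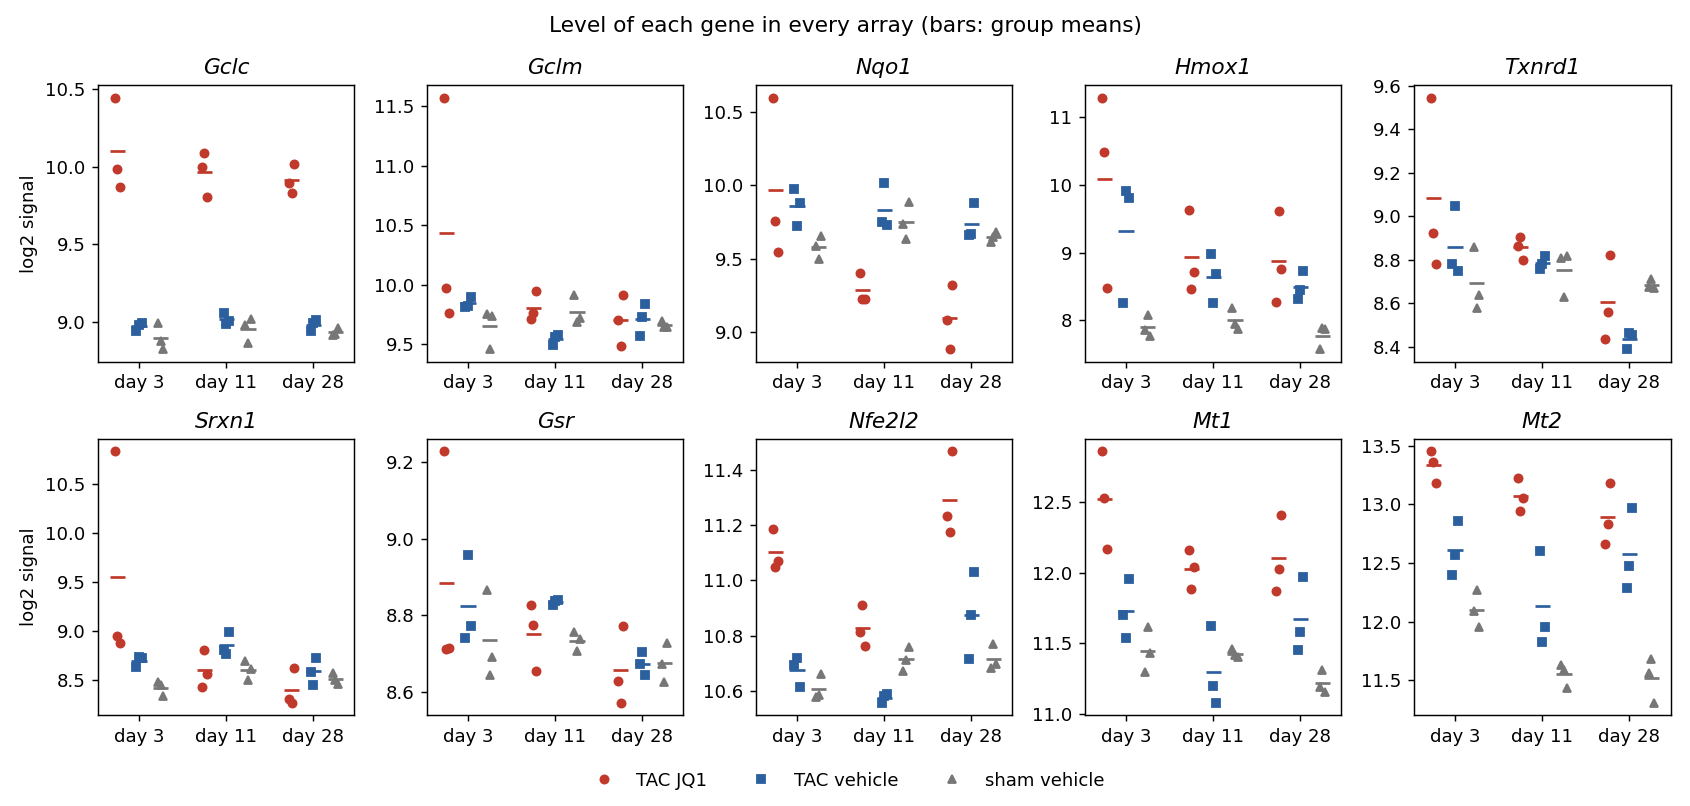
Log2 level of each of the 10 genes in all 27 arrays, with TAC JQ1, TAC vehicle and sham vehicle side by side at days 3, 11 and 28 and a bar at each group mean. Gclc in TAC JQ1 lies apart from both other groups at every day, Nqo1 in TAC JQ1 lies below them at days 11 and 28, and Gclm, Nqo1, Txnrd1, Srxn1 and Gsr each have 1 high array at day 3.

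The order of the 9 group means differed between genes. For Gclc the 3 TAC JQ1 groups led with means of 9.92 to 10.10, and the 6 vehicle groups followed from 8.90 to 9.01, no neighbours of which differed beyond their spread. For Nfe2l2 the order was led by TAC JQ1 day 28 at 11.29 ± 0.15 (SD, n = 3) and day 3 at 11.10 ± 0.07, whose arrays overlapped, and TAC vehicle day 28 at 10.87 ± 0.16 and TAC JQ1 day 11 at 10.83 ± 0.08 overlapped. For Mt2 the 3 TAC JQ1 means of 12.89 to 13.33 were the highest, the TAC vehicle means were 12.13 to 12.61, and sham ranged from 11.52 to 12.10. For Nqo1 the TAC JQ1 means of days 28 and 11, 9.10 ± 0.22 and 9.29 ± 0.10, were the lowest, and that of day 3, 9.97 ± 0.56, was the highest with replicate 1 at 10.60, while the other arrays of that group held 9.76 and 9.55, below the TAC vehicle mean of the same day (9.86).

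TAC JQ1 replicate 1 of day 3 was the highest of the 27 arrays for Gclc, Gclm, Nqo1, Hmox1, Txnrd1, Srxn1, Gsr, Mt1 and Mt2. Set against the mean of the sham arrays of day 3, Srxn1 stood 2.42 higher in it and 0.49 higher on average in the other TAC JQ1 arrays. Gclm stood 1.92 higher in it and 0.22 in the others. Without that array the pooled residual SD within groups, before moderation by eBayes, was smaller. It fell from 0.35 to 0.13 for Gclm, from 0.39 to 0.12 for Srxn1 and from 0.22 to 0.13 for Nqo1. Within groups, Gclm and Srxn1 had an r of 0.94 over 27 arrays and 0.47 over the 26 others. Txnrd1 and Gsr had 0.92 and 0.79, and Mt1 and Mt2 had 0.85 and 0.88.

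**Figure D3:**
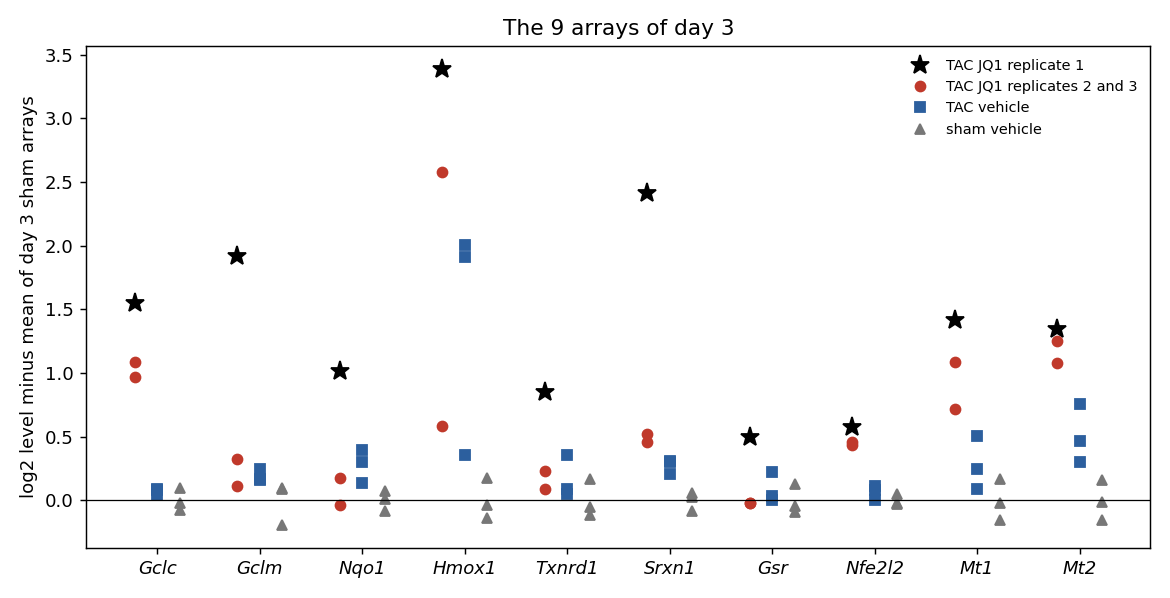
Log2 level of each gene minus the mean of the day 3 sham arrays, for the 9 arrays of day 3. TAC JQ1 replicate 1 (stars) stands above both other TAC JQ1 arrays for every gene, by the most for Srxn1 and Gclm. Replicates 2 and 3 average 0.45 to 1.58 above sham for Gclc, Hmox1, Srxn1, Nfe2l2, Mt1 and Mt2, and −0.02 to 0.22 for the other genes.

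Genes whose levels ran most like a member's over the 27 arrays were found by Pearson r, a description over arrays that share groups. For Gclc they were Hexim1 (0.98), an inhibitor of P-TEFb, Peli1 (0.97) and H2bc4 (0.97). Hexim1 lay between 8.96 and 9.65 in the 9 TAC JQ1 arrays, 7.44 and 7.74 in TAC vehicle, and 7.32 and 7.70 in sham. For Nfe2l2 they were Srsf2 (0.87), a splicing factor, Dnajb1 (0.87), a heat shock co-chaperone, and Zfp800 (0.86). For Mt1 they were Mt2 (0.90), Fkbp5 (0.90), a glucocorticoid-induced co-chaperone, and Peg3 (0.89). For Mt2, after Mt1, they were Dhrs7b (0.87) and Baiap2 (0.86). For Hmox1 they were Pgd (0.87), an enzyme of the pentose phosphate pathway, Slc3a2 (0.87), a chain of the cystine carrier, and Maged1 (0.84). Without TAC JQ1 replicate 1 of day 3 these r were 0.82, 0.79 and 0.74. For Gclm they were Ddx24 (0.91), Srxn1 (0.89) and Map3k6 (0.89), and the same r were 0.55, 0.26 and 0.52 without TAC JQ1 replicate 1 of day 3. For Srxn1 they were Gclm, Ypel5 (0.88, and 0.26 without that array) and Atxn10 (0.88, and 0.65). For Txnrd1 they were Psmd11 (0.92), Tatdn2 (0.88) and Gsr (0.86), and for Gsr, after Txnrd1, Csnk1a1 (0.84) and 2310057M21Rik (0.84). Without that array these r were 0.83, 0.75 and 0.72 for Txnrd1, and 0.67 and 0.67 for Gsr. For Nqo1 they were Zbtb22 (0.84), Kank1 (0.83) and Gcnt2 (0.83), and 0.75, 0.75 and 0.80 without that array.

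The other genes of these pathways were read from 7 lists in the same fit, and their counts stand beside the shares of all genes given above for each comparison. In glutathione synthesis and turnover 15 genes were measured, and the mean JQ1 effect was higher for 4 and lower for 3. Ggct (0.29 ± 0.06, adjusted p = 0.000358) and Slc3a2 (0.25 ± 0.06, 0.00229) were higher, and Ggt5 (−0.38 ± 0.06) and Abcc1 (−0.28 ± 0.04), an exporter of glutathione conjugates, were lower. At day 3 the list held 2 genes higher and 3 lower with JQ1, and 0 and 1 without TAC JQ1 replicate 1. TAC alone raised 4 and lowered 6, among them Cth (−0.81 ± 0.09, 5.43e-07), which makes cysteine, and Oplah (−0.48 ± 0.06). By day, JQ1 gave 2, 2 and 0 higher and 3, 2 and 3 lower at days 3, 11 and 28, and TAC 2, 2 and 1 higher and 2, 6 and 2 lower. The median change of the 15 was 0.02 with JQ1 and −0.01 with TAC.

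Glutathione peroxidases and transferases, 24 genes, were lower more than higher with TAC, 12 against 5. Gstm7 fell by 0.66 (SE 0.05, adjusted p = 3.17e-09) and Gstk1 by 0.51 (SE 0.04), and Gpx1 rose by 0.59 (SE 0.06). With JQ1 4 were higher and 6 lower. Hpgds, the prostaglandin D synthase of this transferase family, fell by 1.16 with JQ1 (SE 0.06, 8.3e-12) and rose by 0.62 with TAC. Gstm7 was higher with JQ1 by 0.23 (SE 0.05, 0.00176) and Gstm1 by 0.32 (SE 0.04). Over the 3 days JQ1 gave 1, 4 and 1 higher and 1, 3 and 4 lower, and TAC 4, 5 and 5 higher and 4, 11 and 4 lower. The median of the 24 was 0.04 with JQ1 and −0.13 with TAC. Macrophage and fibroblast markers moved in the directions of Hpgds in the mean of the 3 days. JQ1 lowered 15 of 18 and 9 of 12, beside 16.8% of all genes, and TAC raised 17 and 11, beside 13%. Their part in the change of Hpgds was not tested.

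Of 26 other NRF2 targets, 6 were higher and 4 lower with JQ1. Prdx1, a peroxiredoxin, was higher by 0.25 (SE 0.05, adjusted p = 0.000918) and Fech by 0.27, and Pir and Trim16 fell by 0.45 and 0.37. TAC raised 7, with Akr1b8 at 0.58 and Ugdh at 0.52, and lowered 4, with Aox1 at −0.71 and Me1, an NADPH-making enzyme, at −0.24. At days 3, 11 and 28 JQ1 gave 0, 3 and 1 higher and 1, 2 and 6 lower, and TAC 2, 2 and 4 higher and 2, 3 and 1 lower. The median of the 26 was 0.03 with JQ1 and 0.02 with TAC. NRF2 regulators and partners, 16 genes, held 3 higher and 4 lower with JQ1. Cul3, the ligase scaffold that works with KEAP1, was higher with JQ1 by 0.15 (SE 0.04, 0.0065) and lower with TAC (−0.20 ± 0.04). Prkcd fell by 0.42 with JQ1 and rose by 0.50 with TAC. TAC gave 3 higher and 4 lower in the mean. Day by day, JQ1 gave 0, 0 and 1 higher and 0, 3 and 4 lower, and TAC 1, 2 and 1 higher and 0, 2 and 3 lower, and the median was −0.02 with each.

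Thioredoxin, peroxiredoxin and superoxide enzymes, 24 genes, were 10 higher and 1 lower with JQ1, and 3 higher and 10 lower with TAC. Sesn3 was higher with JQ1 by 0.65 (SE 0.06, adjusted p = 6.58e-09) and Txnip, the inhibitor of thioredoxin, by 0.43 (SE 0.08). Sod3, the extracellular superoxide dismutase, fell by 0.33 with JQ1 and rose by 0.33 with TAC, and the mitochondrial Sod2 fell by 0.25 with TAC. By day, JQ1 gave 4, 5 and 7 higher and 0, 0 and 1 lower, and TAC 1, 2 and 2 higher and 5, 5 and 2 lower. The median change of the 24 was 0.10 with JQ1 and −0.09 with TAC, beside 0.02 and −0.03 for all genes.

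Metallothionein relatives and metal transporters, 26 genes, were 6 higher and 8 lower with JQ1. Slc31a1, the copper importer, was higher by 0.38 (SE 0.06, adjusted p = 2.35e-05) and the copper ATPase Atp7a by 0.40 (SE 0.06), while the zinc importers Slc39a10 and Slc39a3 fell by 0.48 and 0.25. TAC raised 9 and lowered 3, and Slc39a10 rose by 0.35. By day, JQ1 gave 3, 4 and 4 higher and 3, 5 and 4 lower, and TAC 2, 3 and 6 higher and 1, 0 and 1 lower. The median was −0.04 with JQ1 and 0.02 with TAC. Haem breakdown and iron storage, 17 genes, were 3 higher and 4 lower with JQ1. Ftl1, a ferritin chain, was higher by 0.52 (SE 0.16, 0.0156), and Lrp1 fell by 0.40 with JQ1 and rose by 0.51 with TAC. The iron exporter Slc40a1 fell by 0.61 with TAC, which gave 3 higher and 2 lower. By day, JQ1 gave 0, 1 and 0 higher and 1, 1 and 3 lower, and TAC 1, 2 and 3 higher and 1, 2 and 1 lower, and the median was 0.06 with JQ1 and 0.07 with TAC. The 3 red blood cell markers measured were all higher with JQ1 in the mean, beside 12.3% of all genes, with a median of 0.43. Their part in the haem genes was not tested. Without TAC JQ1 replicate 1 of day 3, the day 3 counts with JQ1 were 1 higher and 1 lower for the metal list and 0 of each for the haem list.

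**Figure D4:**
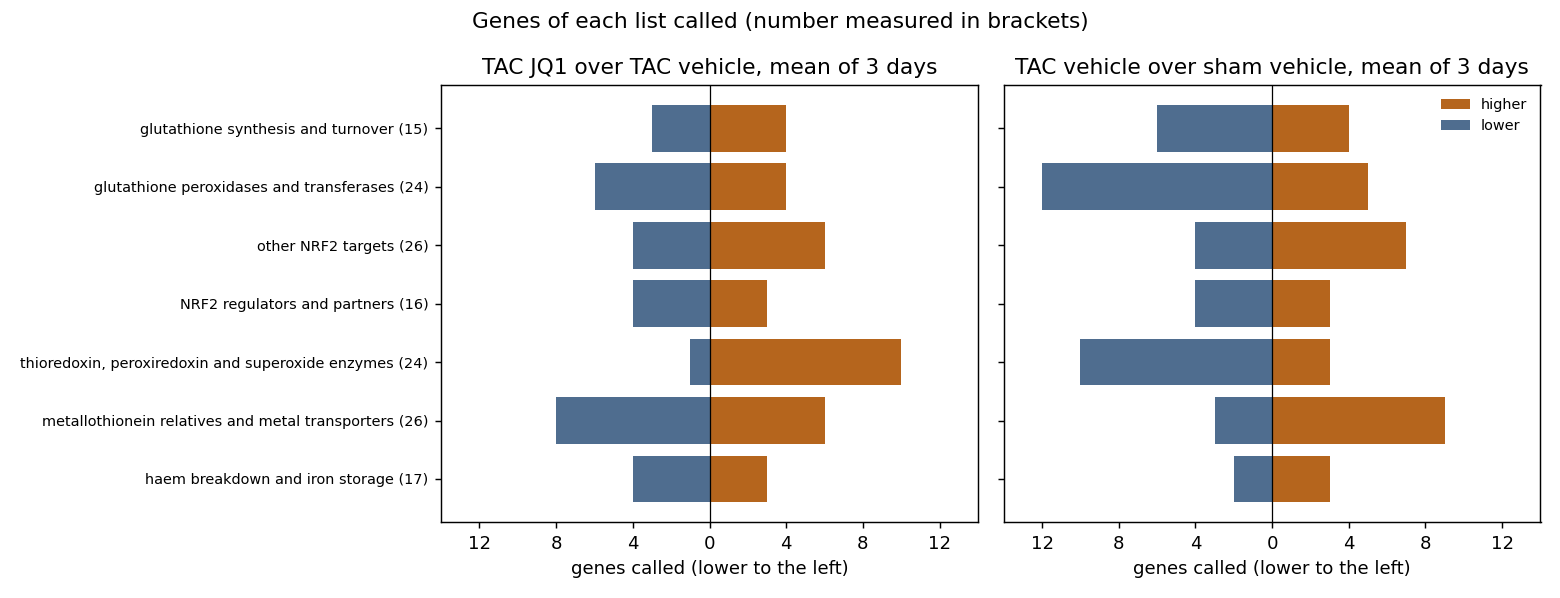
Number of genes of each pathway list called higher (right of 0) or lower (left of 0) in the mean of the 3 days, for TAC JQ1 over TAC vehicle (left panel) and TAC vehicle over sham vehicle (right panel). The thioredoxin, peroxiredoxin and superoxide list has 10 higher and 1 lower in the left panel and 3 higher and 10 lower in the right panel.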

How the data were processed

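RNA from mouse hearts, on 27 arrays in 9 groups of 3 taken from the labels, was analysed. Each array has deposited log2 signals for 34760 probe sets, from 1.67 to 14.2, made by the authors from Affymetrix whole-transcript arrays after labelling per the labels' protocols. Their background correction and normalization are not given in the sources used here, and no further normalization was applied. For the comparisons limma is named, without a version, per the submitters' processing notes. Probe sets naming 1 gene numbered 21640, those naming several genes (1321) or none (11799) were left out, and the probe set with the highest mean was kept per gene, which gave 19937 genes. Arrays give no counts, so their number limits the precision.

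One model of 9 group means was fitted with limma 3.58.1 (lmFit, eBayes) in R 4.3.3, with 18 residual and 4.9 prior degrees of freedom, and p-values were adjusted by Benjamini-Hochberg over all genes. The fit was tested on simulated data. The 10 genes and 17 lists (7 of pathways, the others of cell markers and glucocorticoid-responsive genes) were written with earlier results of these data known; 245 of 268 listed genes were matched. Named list genes are up to 2 per direction with the smallest p for the mean of the 3 days of TAC and of JQ1 among those called. The 3 genes most like a member were taken by Pearson r. Alternatives were another quantile normalization, median centring, leaving out the dimmest genes, mean of probe sets, trend and robust eBayes, array weights, only the groups compared, a replicate block, and each array left out. Promoters are from RefSeq (GRCm38.p6). Protein sequences were not used here.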

Additional observations from a re-analysis of the deposited data

How the results depend on the processing

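Of the member counts, 20 of the 525 alternative values moved by more than 1.5 times, and no change called in either setting turned direction; sign changes of uncalled values were not counted. With array weights TAC gave 2 member calls at day 3 (0 in the fit reported above) and 3 at day 28 (1). With only the groups compared TAC gave 4 at day 28 (1) and 4 in the mean (2), and TAC JQ1 against sham gave 4 at day 3 (8). Leaving out each array gave, for TAC, 0 to 1 at day 3, 0 to 1 at day 11, 1 to 2 at day 28 and 2 to 3 in the mean. For JQ1 against TAC vehicle it gave 3 to 7 at day 3, 3 to 5 at day 11, 2 to 4 at day 28 and 5 to 8 in the mean. For JQ1 against sham it gave 6 to 9, 2 to 4, 4 to 6 and 5 to 8 in the mean, and 0 to 1 for the JQ1 effect between days. Day 3 TAC JQ1 replicate 3 gave the 7, both 8s and the last 1. The cause of these moves was not tested, beyond the change in arrays fitted.

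Over all genes, only the groups compared gave 250 calls for TAC at day 3 (1506), 422 for JQ1 at day 3 (2372), 2126 at day 28 (3907) and 1178 for JQ1 against sham at day 3 (3511). Array weights gave 2904 for TAC at day 3, 5972 at day 11 (3097), 6929 for JQ1 at day 11 (3180), and 6313 and 5461 for JQ1 against sham at days 3 and 11 (3511 and 2097). The tests between days gave 261, 213 and 13 calls, and 580, 469 and 21 without the dimmest genes, 498 and 358 for the first pair with trend and robust eBayes, 2045, 2704 and 2162 with weights, and 626, 2 and 0 with only the groups compared. Each array left out gave 466 to 1879 for TAC and 1409 to 2740 for JQ1 at day 3, 1794 to 3490 for TAC at day 28, 2039 to 3756 for JQ1 at day 11, 1180 to 2651 for JQ1 against sham at day 11, and 96 to 561, 37 to 437 and 0 to 20 between days. Median centring gave 1005 higher and 2796 lower for JQ1 at day 28 (1427 and 2480), and 1047 and 2900 against sham (1468 and 2508).

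Of 27 pairs of same-numbered arrays, 7 had an r over 0.1, with a range of −0.46 to 0.50. Arrays of different numbers were not compared, so these r cannot tell whether replicate numbers pair the arrays. With the replicate number as a block every member count was as before (4, 5 and 3 for JQ1 against TAC vehicle), and the tests between days gave 135, 44 and 1 calls over all genes.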
